A study of Caenorhabditis elegans with 12 samples.

Results

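The subject is the genotype by tunicamycin interaction in whole L1 larvae of Caenorhabditis elegans, that is, how far the transcript response to tunicamycin differed between wild-type worms and manf-1 mutants. For each Affymetrix probe set, a group of probes that reads 1 transcript or a few related ones, the interaction was computed as the log2 change with tunicamycin in mutants minus the log2 change with tunicamycin in wild type. A value above 0 therefore means a more positive change in mutants, and a value of 1 means that the mutant's change, as a fold, was 2 times that of wild type. All 12 of the 12 arrays of the series enter it, 3 in each of 4 groups. It was tested for the 14709 of 22548 probe sets that exceeded the 40th percentile of their array on at least 3 arrays. Where results are given per gene, each of 10844 genes is represented by its brightest probe set. Of these genes, 954 (8.8%) had a mean signal under the background level read from control probe sets, so dim signals were tested too.

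The groups were wild-type N2 larvae in vehicle (DMSO), N2 larvae in tunicamycin, larvae carrying manf-1(tm3603) in vehicle, and the same mutants in tunicamycin. All were whole, unfed, synchronized L1 larvae that had hatched without bacteria, were washed off 24 h after plating and were then rotated in M9 buffer for 5 h with the drug or DMSO alone. The tunicamycin dose carries the number 5, but its unit is ug/mL under the sample characteristics and ug/uL under the treatment. The mutants represent 1 allele of 1 gene. The array annotation assigns nothing to manf-1, and the mutated gene's own level, a check of the genotypes, was not analysed here. The labels do not state whether replicate arrays represent independent cultures, and p-values then reflect only the spread between these samples, which may be technical.

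Tunicamycin blocks the enzyme that starts the sugar chain of N-linked glycoproteins, so proteins that need this chain misfold in the endoplasmic reticulum (ER). The sensors IRE-1, PEK-1 and ATF-6 then switch on the unfolded protein response, which raises ER chaperones, disulfide isomerases, degradation factors and secretory machinery. MANF proteins reside in the ER and are also secreted, bind the ER chaperone BiP, and in vertebrates act as neurotrophic factors.

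The responses of the genotypes differed at 1 probe set, 1 of 3 that read rab-6.1, the gene of a Rab6-type GTPase of Golgi traffic, and the other 2 rab-6.1 probe sets did not show the difference. At the called probe set the signal went down with tunicamycin in wild type and up in mutants. With each gene taken at its brightest probe set, the smallest p-values above and below 0 belonged to Y41C4A.32, which rose in both genotypes, by 3.16 in wild type and 5.82 in mutants, and alh-5, which fell by 2.40 in mutants beside a change of -0.14 in wild type, but no interaction among these passed the threshold. The ER chaperone genes hsp-4, hsp-3, enpl-1 and crt-1 rose in both genotypes with interactions between 0.06 and 0.35 at their brightest probe sets. A second enpl-1 probe set gave 0.91. Over all 23 ER chaperone and folding genes measured, the interactions ran from -0.67 to 1.02.

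By limma, with Benjamini-Hochberg adjustment over all probe sets tested, 1 of 14709 passed an adjusted p of 0.05, which is 0.0068%. At an unadjusted p under 0.05 there were 679 probe sets (4.62%), against 735 expected if no probe set had an interaction. Over genes, 511 (4.71%) reached that unadjusted level, 230 of them above 0 (2.12%) and 281 below 0 (2.59%). The middle 90% of genes had interactions between -1.12 and 1.1. The median 95% interval extended 1.25 to either side of its value, so for a typical gene a mutant response 2-fold stronger or weaker than the wild-type one was not detectable with 3 arrays per group. The lowest adjusted p among probe sets that were not called was 0.0974.

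At the called rab-6.1 probe set the log2 signals in wild type with vehicle were 5.70, 6.41 and 5.84 on the arrays numbered 1, 2 and 3. With tunicamycin they were 3.94, 3.96 and 4.1. In mutants they were 4.44, 4.44 and 4.07 with vehicle and 6.01, 6.11 and 6.08 with tunicamycin. The wild-type vehicle and mutant tunicamycin arrays were thus the high ones, the other 6 arrays were low, and no groups compared within a genotype or within a treatment overlapped. The signal fell by 1.98 in wild type (SE 0.33, limma adjusted p = 0.012) and rose by 1.75 in mutants (SE 0.33, adjusted p = 0.0177). The interaction was 3.73 (SE 0.46, 95% interval 2.74 to 4.72, limma adjusted p = 0.0177). Between genotypes the difference was -1.67 with vehicle (adjusted p = 0.563) and 2.06 with tunicamycin (adjusted p = 0.0495).

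The other probe sets of rab-6.1 were brighter. One had a mean signal of 7.55 and an interaction of -0.33 (95% interval -1.40 to 0.74), and the other a mean of 7.42 and an interaction of 0.15 (95% interval -1.2 to 1.49). The called set had a mean of 5.09, and its identifier, like that of the set with a mean of 7.55, is of the kind that Affymetrix gives to sets whose probes are shared between transcripts. The level of the rab-6.1 transcript as a whole is therefore uncertain on this array. It is named because it is the only call, and it lies outside the rule by which the other genes are named, which takes a gene's brightest probe set. The call also depended on which arrays were included. It was lost on leaving out any of 9 of the 12 arrays, namely replicates 2 and 3 of wild type with vehicle, replicates 2 and 3 of wild type with tunicamycin, replicates 1 and 3 of mutants with vehicle and all 3 of mutants with tunicamycin, with limma adjusted p between 0.059 and 0.103, while the interaction stayed between 3.52 and 3.87 over all 12 such fits. Without the 4 arrays numbered 2, which stood apart in a quality measure given further on, it was 3.54 with an adjusted p of 0.611.

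**Figure D1:**
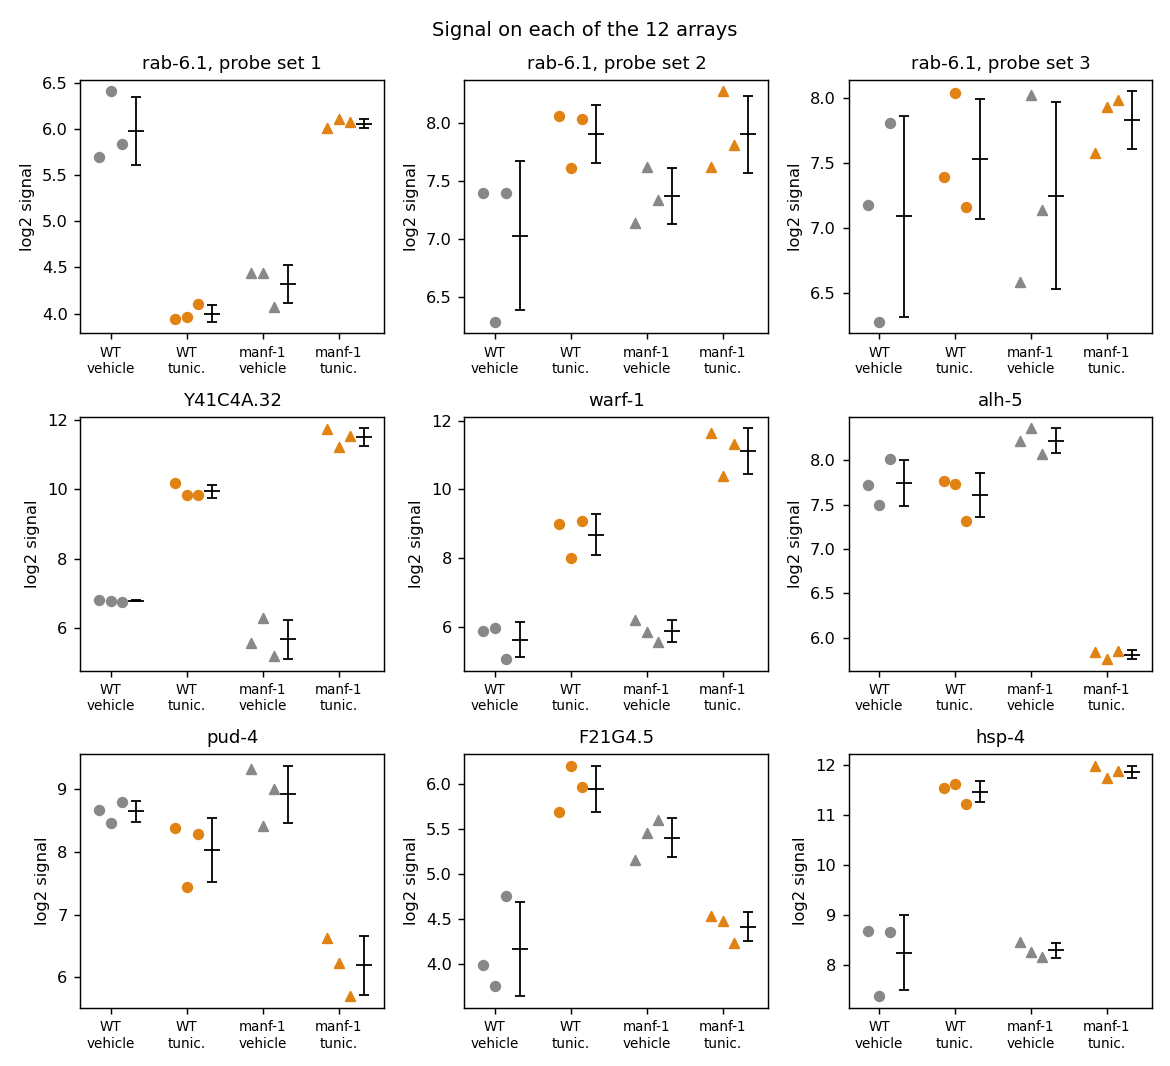
Log2 signal on each of the 12 arrays for the 3 rab-6.1 probe sets (set 1 is the called one) and 6 genes. Circles are wild type (WT), triangles manf-1(tm3603), grey is vehicle and orange tunicamycin (tunic.), the points of a group run from array 1 to array 3, and the bar beside them is the mean with its SD (n = 3). The crossing pattern of the called rab-6.1 set, from 5.98 to 4.0 in wild type and from 4.32 to 6.06 in mutants, is not seen in sets 2 and 3.

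Since no gene's brightest probe set passed, the 10 genes with the smallest p in each direction were described instead, and none of the 20 passed the threshold. Of these 20, 12 had changes of opposite sign in the 2 genotypes, as had 43.6% of all genes, and in 18 the genotype difference had opposite signs with vehicle and with tunicamycin, as in 47.5% of all genes. A large interaction favours such patterns by its arithmetic, so both counts are descriptions.

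Among genes with a more positive change in mutants, Y41C4A.32, for which no role is given here, had the smallest p. Its signals in wild type were 6.81, 6.79 and 6.76 with vehicle and 10.17, 9.84 and 9.83 with tunicamycin. In mutants they were 5.55, 6.29 and 5.18 with vehicle and 11.73, 11.21 and 11.54 with tunicamycin. Mutant arrays were the lowest with vehicle and the highest with tunicamycin, with no overlap between any of the groups compared. The gene rose by 3.16 in wild type (limma adjusted p = 0.000142) and by 5.82 in mutants (adjusted p = 2.43e-07), and the interaction of 2.66 (SE 0.42, 95% interval 1.76 to 3.57) had an adjusted p of 0.0974. Among the alternatives run it passed only on leaving out mutant vehicle replicate 2, with an interaction of 2.97 and an adjusted p of 0.0312.

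The gene warf-1, for an Arf-family GTPase of the kind that works in Golgi traffic, had vehicle signals of 5.86, 5.96 and 5.05 in wild type and 6.19, 5.83 and 5.55 in mutants. With tunicamycin it reached 8.98, 7.99 and 9.07 in wild type and 11.65, 10.38 and 11.33 in mutants. The vehicle groups overlapped, and every treated mutant array lay above every treated wild-type array. It rose by 3.06 (adjusted p = 0.00236) and by 5.27 (adjusted p = 3.08e-05), an interaction of 2.21 (SE 0.58, limma adjusted p = 0.995). Y54G2A.18 had the same shape, with changes of 2.22 in wild type and 4.14 in mutants and an interaction of 1.92 (SE 0.53). Its second probe set gave 1.21, but exceeded the background level, 3.34, on only 6 of 12 arrays. Its vehicle means there were 2.38 in wild type and 2.04 in mutants, under that level.

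In the other 7 of these genes the wild-type change was between -1.60 and 0.14. The gene rmd-1, a regulator of microtubule dynamics, had signals of 5.57, 3.90 and 4.24 with vehicle and 4.63, 3.99 and 4.11 with tunicamycin in wild type. In mutants it had 4.2, 2.91 and 3.78 with vehicle and 6.37, 6.96 and 6.32 with tunicamycin. Treated mutant arrays stood above all others, and the gene rose by 2.92 in mutants (adjusted p = 0.0061), with an interaction of 3.25 (SE 0.67, limma adjusted p = 0.494). The gene samt-1 rose in mutants by 1.85 (adjusted p = 0.0148) from a lower vehicle level and had an interaction of 1.71 (SE 0.47). For nhr-183, a nuclear hormone receptor, the interaction of 2.50 (SE 0.56) was made of -1.04 in wild type and 1.46 in mutants. The translation factor ife-3, an eIF4E, had an interaction of 2.19, and its second probe set 0.38. For K07H8.9, F02C12.1 and the immunoglobulin-domain gene zig-8 the interactions were 2.19, 2.02 and 1.71, and K07H8.9 and zig-8 exceeded the background level on only 4 and 6 of 12 arrays.

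Among genes with a more negative change in mutants, alh-5, of the aldehyde dehydrogenase family, had the smallest p. Its signals in wild type were 7.72, 7.5 and 8.01 with vehicle and 7.77, 7.73 and 7.32 with tunicamycin. In mutants they were 8.22, 8.36 and 8.07 with vehicle and 5.84, 5.76 and 5.85 with tunicamycin. The treated mutant arrays lay far under all the rest, while the wild-type groups overlapped. The gene fell by 2.40 in mutants (limma adjusted p = 0.000446), its wild-type change was -0.14 (adjusted p = 0.953), and the interaction was -2.27 (SE 0.40, 95% interval -3.13 to -1.40, adjusted p = 0.233). With tunicamycin alh-5 was lower in mutants than in wild type by -1.79 (adjusted p = 0.0495).

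For F21G4.5 the wild-type signals were 3.99, 3.75 and 4.75 with vehicle and 5.68, 6.2 and 5.96 with tunicamycin. The mutant signals were 5.15, 5.45 and 5.59 with vehicle and 4.53, 4.48 and 4.23 with tunicamycin. The direction was reversed between genotypes with no overlap in either. It rose by 1.78 in wild type (adjusted p = 0.0489), its mutant change was -0.98 (adjusted p = 0.35), and the interaction was -2.76 (SE 0.50, limma adjusted p = 0.235).

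The gene pud-4, from the small pud family, had wild-type signals of 8.67, 8.47 and 8.80 with vehicle and 8.38, 7.44 and 8.28 with tunicamycin. Mutant signals were 9.32, 8.41 and 9.01 with vehicle and 6.63, 6.23 and 5.70 with tunicamycin. Vehicle groups overlapped and the treated mutants were lowest. It fell by 2.73 in mutants (adjusted p = 0.000971), and its interaction was -2.11 (SE 0.50, limma adjusted p = 0.846). The related pud-3 had an interaction of -1.47 (SE 0.77).

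T22F3.11 is read by a pair of probe sets. On the brighter set the mutants' fall was 2.12, the wild-type change -0.44 and the interaction -1.68 (SE 0.44). On the other set the interaction was -2.47 (95% interval -3.30 to -1.65, limma adjusted p = 0.0974), made of -0.30 in wild type and -2.77 in mutants. Both sets thus pointed the same way, unlike those of rab-6.1. Among fits that left out an array, the second set passed the threshold without replicate 1 of wild type with tunicamycin (interaction -2.73, limma adjusted p = 0.0459).

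Of the other 6 genes with a more negative mutant change, trmt-10C.1, named as a tRNA methyltransferase, had a wild-type change past the threshold. It rose by 2.24 in wild type (adjusted p = 0.012) beside a change of 0.13 in mutants, and only 5 of 12 arrays exceeded background. K09E3.4, T07F12.4 and W05B10.4 had interactions of -3.03, -2.97 and -2.91 with SEs of 0.63, 0.63 and 0.75. The antibacterial peptide gene abf-2 had -2.23, and inx-16, which encodes an innexin of gap junctions, had -1.95 (SE 0.51). In these 5 the wild-type change was above 0 and the mutant change below 0, and none of those changes passed in either genotype.

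Whether genes that respond to tunicamycin respond more strongly in mutants was described over responders. These are the genes whose tunicamycin effect averaged over both genotypes passed a limma adjusted p of 0.05. A responder may thus have changed mainly in 1 genotype. Examples are alh-5 (-0.14 in wild type, -2.40 in mutants) and trmt-10C.1 (2.24 in wild type, 0.13 in mutants). The average over genotypes weighs all 12 arrays equally. Its contrast is orthogonal to that of the interaction, so their estimates are uncorrelated if the groups have equal spread. The averaged effect called 280 probe sets (1.9%), and per gene 129 were higher (1.19%) and 90 lower (0.83%) with tunicamycin. Of the 129 higher responders, 89 (69.0%) had an interaction above 0, beside 49.9% of all genes, with a median of 0.21 beside 0 for all genes. Of the 90 lower responders, 72 had an interaction below 0, and the median was -0.41. The median change of the higher responders was 1.53 in wild type and 1.77 in mutants, and that of the lower responders -0.93 and -1.49. The direction of the difference was thus towards a larger change in mutants on both sides, and was wider among genes that fell.

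At an unadjusted p under 0.05, 14 of the 129 higher responders had interactions above 0 (10.9%) and 4 below 0, beside 2.12% and 2.59% of all genes. Of the 90 lower responders, 23 had interactions below 0 (25.6%) and 0 above 0, beside the same shares. None of these passed the adjusted threshold. Both contrasts come from the same arrays and use the same estimated spread of each gene, which favours genes of low spread in both. That spread also decides which genes count as responders. Its part in these counts and in the signs was not tested. The median SD over probe sets was 0.434 and 0.469 in wild type with vehicle and tunicamycin and 0.4 and 0.373 in mutants. The count among higher responders was 9 of 111 (8.11%) without replicate 1 and without replicate 3 of wild type with vehicle, and 9 of 91 (9.89%) without replicate 1 of mutants with tunicamycin. Without replicate 3 of wild type with vehicle 62 of 111 higher responders were above 0, with a median of 0.08 and 8 at the unadjusted level below 0. Among lower responders the number of responders changed together with the count. Without replicates 1, 2 and 3 of wild type with vehicle in turn it was 11 of 48, 15 of 67 and 12 of 48 (22.9%, 22.4% and 25%). It was 15 of 72 (20.8%) without replicate 1 of wild type with tunicamycin, 12 of 36 (33.3%) without replicate 1 of mutants with vehicle and 14 of 42 (33.3%) without replicate 2 of mutants with tunicamycin. Without the 4 arrays numbered 2 there were 82 higher responders, 54 of them above 0 and 7 at the unadjusted level (8.54%), and 39 lower responders, 33 of them below 0 and 8 at the unadjusted level (20.5%).

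**Figure D2:**
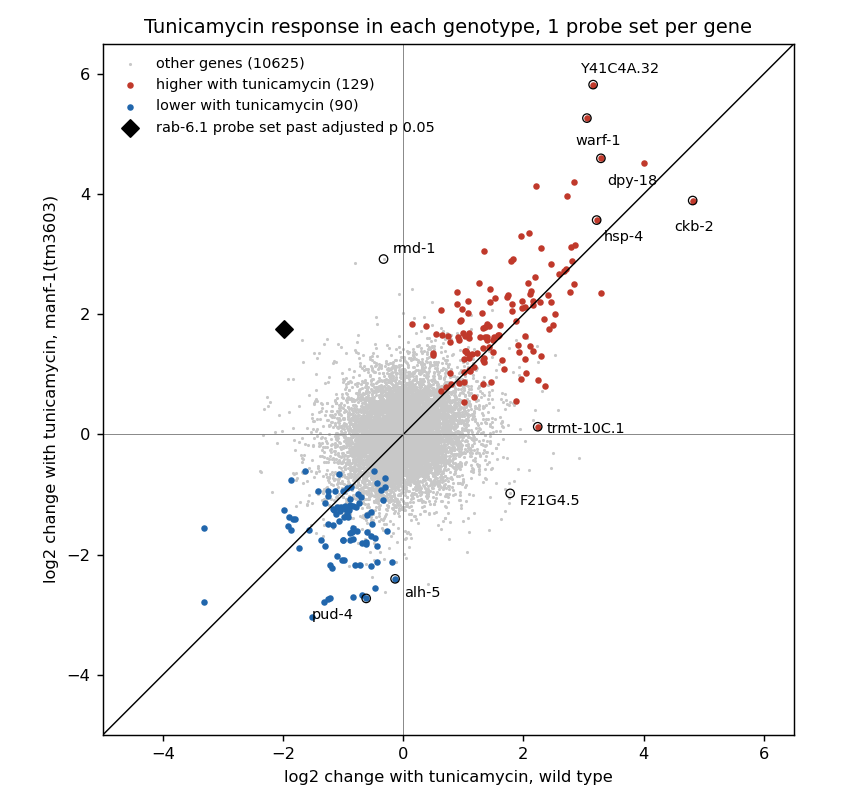
Log2 change with tunicamycin in wild type (x axis) and in manf-1(tm3603) (y axis) for each of 10844 genes, from means of 3 arrays per group. Red and blue points are the 129 higher and 90 lower responders, the black diamond is the called rab-6.1 probe set, circles mark named genes, and the diagonal is equal change. Y41C4A.32 and warf-1 lie above the diagonal and alh-5 and pud-4 below it, while hsp-4 (3.22 and 3.57) lies close to it.

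By rule the 5 responders with the largest interactions in each direction were named. Above 0 these were Y41C4A.32, warf-1, Y54G2A.18, grl-7 and fipr-24. The gene fipr-24, of a family named for induction by fungal infection, changed by 1.34 in wild type and rose by 3.06 in mutants, with signals of 5.07, 5.02 and 5.42 against 6.63, 5.73 and 7.16 in wild type and 4.88, 4.41 and 4.77 against 7.81, 7.89 and 7.54 in mutants. All treated mutant arrays lay above all treated wild-type arrays. For grl-7, a hedgehog-related gene, the positive interaction of 1.76 (SE 0.83) arose from a fall of 3.31 in wild type (limma adjusted p = 0.0202) and a change of -1.55 in mutants. Below 0 the 5 were alh-5, pud-4, trmt-10C.1, cpr-4 and ZK512.7. The cathepsin B-like protease gene cpr-4 had an interaction of -2.07 (SE 0.67), with a change of -0.48 in wild type and a fall of 2.55 in mutants. ZK512.7 had -1.98 (SE 0.67), and its second probe set -0.97.

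The ER chaperones and folding enzymes were the largest block of responders among the lists, with 15 of 23 genes higher with tunicamycin on average. Their interactions ran from -0.67 to 1.02. The lowest was the disulfide isomerase gene pdi-3, which rose by 2.50 in wild type and 1.82 in mutants (95% interval -1.82 to 0.47). Of the 23, 17 were above 0 and the median was 0.16, none reached an unadjusted p under 0.05, and all 23 of the 95% intervals covered 0. The median change was 1.81 in wild type and 1.82 in mutants. For 4 of the 23 the interval lay wholly within 1 unit of 0.

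The BiP homologue hsp-4 had vehicle signals of 8.68, 7.37 and 8.66 in wild type and 8.45, 8.25 and 8.16 in mutants. With tunicamycin they were 11.53, 11.62 and 11.22 in wild type and 11.97, 11.73 and 11.88 in mutants. The vehicle groups overlapped, and the treated mutant arrays lay just above the treated wild-type ones. Its interaction was 0.35 (SE 0.42, 95% interval -0.56 to 1.26). The other BiP homologue, hsp-3, had 0.25 (SE 0.27, 95% interval -0.32 to 0.82), an interval that lies within 1 unit of 0. Calreticulin, crt-1, had 0.06 (95% interval -0.66 to 0.78). For enpl-1, the ER Hsp90, the value was 0.06 (95% interval -0.96 to 1.08), with 0.91 on a second probe set. The disulfide isomerases C14B9.2, pdi-2 and pdi-6 had 0.38, 0.43 and 0.28 (0.28, -0.05 and 0.47 on their second probe sets), and dnj-27, an ER DnaJ protein, had 0.05 with a wide interval of -1.85 to 1.96. The highest in the list was uggt-1, the glucosyltransferase that marks unfolded glycoproteins, at 1.02 (95% interval -0.10 to 2.13), with 0.36 and 0.33 on its other probe sets, followed by the lectin chaperone cnx-1 at 0.85 (95% interval -0.40 to 2.10).

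**Figure D3:**
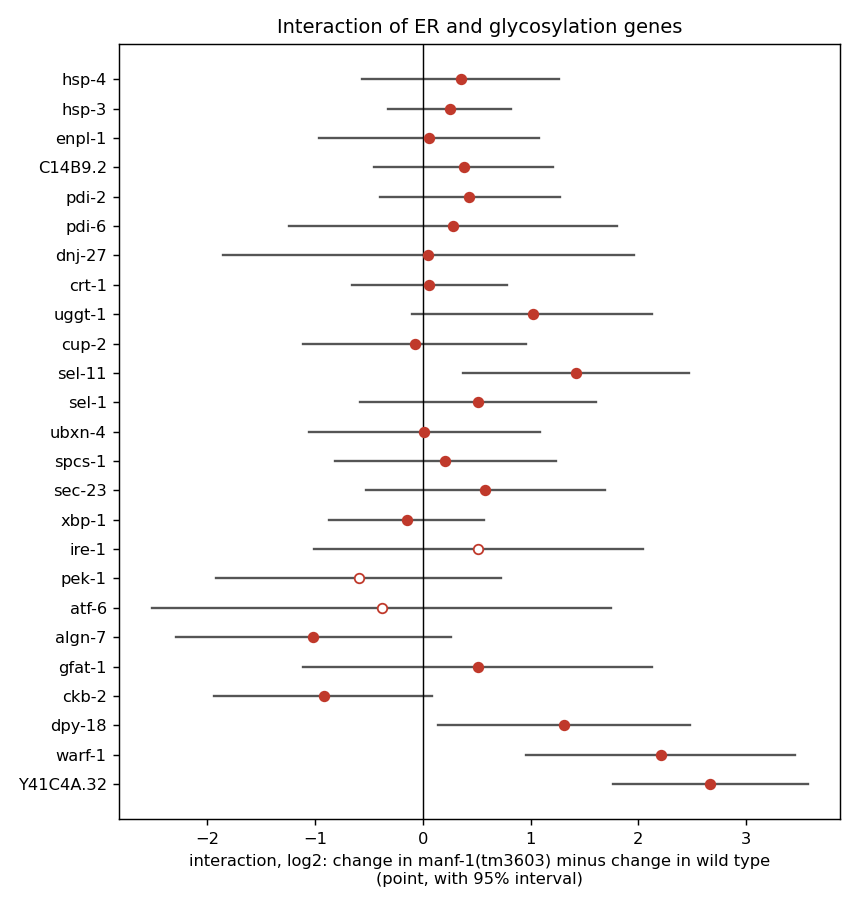
Interaction (log2) of a panel of 25 genes, mostly of the ER, glycosylation and secretion, with its 95% interval from limma. The panel also holds Y41C4A.32, for which no role is given here, and the choline kinase gene ckb-2. Filled points are genes whose averaged tunicamycin effect passed an adjusted p of 0.05 and open points those that did not. The intervals of sel-11, dpy-18, warf-1 and Y41C4A.32 lie above 0 and all others cover 0, before any adjustment for the number of genes. The genes warf-1 and Y41C4A.32 were also named for their small interaction p in these data. Their intervals exclude 0 by that choice and are no separate test. Genes were chosen with earlier results of these data known, so the panel is a description.

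The sensors and transducers of the unfolded protein response had a median interaction of -0.27, with 3 of 8 above 0 and none at the unadjusted level. The sensors themselves had 0.51 for ire-1, -0.59 for pek-1 and -0.38 for atf-6, with 95% intervals of -1.01 to 2.04, -1.92 to 0.73 and -2.51 to 1.75. The transcription factor xbp-1, which acts downstream of IRE-1, had -0.15 (95% interval -0.87 to 0.57), and 0.30 on its second probe set. When all kept probe sets of a gene were averaged, the list median was 0.21. A second atf-6 probe set gave 1.18, so the signs for atf-6 and xbp-1 were not settled by this array.

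For ER-associated degradation, 11 of 15 genes were above 0 with a median of 0.27, and 2 reached the unadjusted level, both above 0 (13.3%, beside 4.71% of all genes in either direction). These were sel-11, the HRD1 ubiquitin ligase, and der-2, a derlin of the retrotranslocation machinery. The signals of sel-11 were 8.79, 8.82 and 8.54 with vehicle and 9.56, 8.82 and 8.91 with tunicamycin in wild type. In mutants they were 8.52, 7.30 and 8.71 with vehicle and 10.02, 9.74 and 10.17 with tunicamycin. Every treated mutant array was above every treated wild-type array, and the gene rose by 1.80 in mutants (limma adjusted p = 0.0209), with an interaction of 1.42 (SE 0.49). Its second, dimmer probe set had -0.01. The interaction of der-2 was 1.13 on each of its probe sets (SE 0.52 on the brighter and 0.49 on the other). The other derlin, cup-2, had -0.07 (95% interval -1.11 to 0.96), sel-1, the HRD3 partner of sel-11, had 0.51, and ubxn-4, an adaptor of the extraction ATPase, had 0.01.

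Genes of ER entry and exit had the highest list median, 0.52, with 16 of 20 above 0. At the unadjusted level were 3 (15%, beside 4.71% of all genes), all above 0. Their median change was 0.43 in wild type and 1.07 in mutants. That median depended on the arrays numbered 2, being 0.07 without them. It was 0.29 without replicate 1 of mutants with vehicle and 0.76 without replicate 3 of wild type with vehicle. The subunits trap-2 and trap-3 of the translocon-associated complex had 1.34 (SE 0.40) and 1.13 (SE 0.50). For trap-2 the wild-type signals were 7.98, 7.65 and 7.70 with vehicle and 7.23, 7.10 and 7.46 with tunicamycin, and the mutant signals 7.73, 7.25 and 7.46 and then 8.13, 8.66 and 8.11. Wild-type arrays were lower with the drug and mutant arrays higher, without overlap, though a dimmer trap-2 probe set gave -0.49. The second trap-3 set gave 1.09. The ER exit factor tfg-1 had 1.61 (SE 0.56). The signal peptidase gene spcs-1 had 0.21 and the COPII coat gene sec-23 0.58, and both of their intervals covered 0.

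In the Golgi and COPI list 9 of 12 were above 0, with a median of 0.50. At the unadjusted level were 2 (16.7%, beside 4.71% of all genes), warf-1 and copa-1. The COPI coat subunit copa-1 had 1.45 (SE 0.59), from 0.63 in wild type and 2.08 in mutants, and 0.50 on its second probe set. For N-glycosylation, 11 of 17 were above 0 with a median of 0.19 and none at the unadjusted level. Its gene algn-7, for the enzyme that tunicamycin inhibits, had -1.02 (95% interval -2.29 to 0.26), with 4.41, 3.98 and 5.15 against 6.86, 6.87 and 5.96 in wild type and 5.59, 4.94 and 4.68 against 6.33, 5.77 and 6.2 in mutants. It was higher with the drug in both genotypes without overlap, and the treated groups overlapped each other. The hexosamine pathway gene gfat-1, which rose by 4.01 and 4.52, had 0.51 (95% interval -1.11 to 2.13).

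A pair of strongly responding enzymes differed in sign. The choline kinase gene ckb-2 rose by 4.82 in wild type and 3.89 in mutants, an interaction of -0.92 (95% interval -1.94 to 0.09). The collagen-modifying prolyl hydroxylase gene dpy-18 had signals of 6.57, 6.49 and 5.88 against 10.15, 9.26 and 9.40 in wild type and 5.33, 6.47 and 6.68 against 11.05, 10.40 and 10.82 in mutants. Its treated mutant arrays all exceeded its treated wild-type arrays, and its interaction was 1.31 (SE 0.55, limma adjusted p = 0.995), with 1.48 and 1.47 on its other probe sets.

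Lists outside the secretory pathway had medians on both sides of 0. Lipid synthesis had 11 of 28 above 0 (median -0.09, 0 at the unadjusted level), and lipid breakdown 9 of 21 (median -0.18). In the latter list the lipase gene lips-11 was the only one at the unadjusted level (4.76%, beside 4.71% of all genes). That gene rose by 2.84 in wild type and 4.21 in mutants, an interaction of 1.36 (SE 0.54). Its mean signal over all arrays was only 4.04, and with changes of that size its vehicle means lay under the background level, 3.34. The cytosolic heat shock response (8 of 15, median 0.05), the mitochondrial unfolded protein response (3 of 11, median -0.13), oxidative stress and glutathione genes (8 of 21, median -0.35) and dopaminergic neuron genes (2 of 6, median -0.19) had 0 at the unadjusted level. The dopamine transporter gene dat-1 had -0.58 (95% interval -1.62 to 0.45). Ribosomal protein genes were the most tightly bounded, with 28 of 61 above 0, a median of -0.03 (0.02 under quantile normalization or median centring) and 55 of 61 intervals within 1 unit of 0. Proteasome genes had 21 of 31 above 0 with a median of 0.25.

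In the autophagy and lysosome list, whose median was 0.11, 3 of 28 reached the unadjusted level (10.7%, beside 4.71% of all genes), all below 0. They were the lysosomal protease genes cpr-4 and asp-13 and the autophagy gene epg-2, at -2.07, -1.49 (SE 0.50) and -1.83 (SE 0.73). The median changed sign, to -0.08, without replicate 2 of wild type with tunicamycin and without replicate 3 of wild type with vehicle, and was -0.01 without replicate 3 of wild type with tunicamycin and 0.29 without replicate 1 of that group. Histones had 9 of 32 above 0 and a median of -0.33, or -0.82 without the 4 arrays numbered 2. At the unadjusted level were 4 histone genes (12.5%), all below 0. The histone genes his-64, his-31 and his-39 had -0.93 (SE 0.26), -0.97 (SE 0.32) and -1.60 (SE 0.58). Histone genes are nearly identical copies, so these probe sets may read several of them. Cuticle collagens had 48 of 129 above 0 with a median of -0.16, and 6 above and 5 below 0 at the unadjusted level (8.53%). Nuclear hormone receptors had 71 of 155 with a median of -0.08, and 4 and 7 (7.1%). Lysozymes, saposins and antimicrobial peptides had 13 of 46 above 0 and a median of -0.31, with 1 above and 5 below 0 at that level (13%). Cytochrome P450 and glucuronosyltransferase genes had 32 of 86, a median of -0.19, and 2 and 5 (8.14%). The abu and pqn genes, some of which are known as induced when the unfolded protein response is blocked, had 29 of 50 above 0. Their median was 0.09, with 4 above and 1 below 0 at that level (10%). Insulin signalling genes had 10 of 20 above 0 (median 0.02), C-type lectins 38 of 79 (median -0.03), hedgehog-related and patched-related genes 26 of 51 (median 0.03), chemoreceptors 21 of 45 (median -0.01), neuropeptides and insulin-like peptides 36 of 89 (median -0.07), major sperm protein genes 14 of 21 (median 0.09) and serpins 1 of 4 (median -0.10). In these 7 lists the genes at the unadjusted level numbered between 0 and 3 per list (0% to 5%). Each of these shares stands beside 4.71% of all genes in either direction, and whether any differs from it was not tested.

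**Figure D4:**
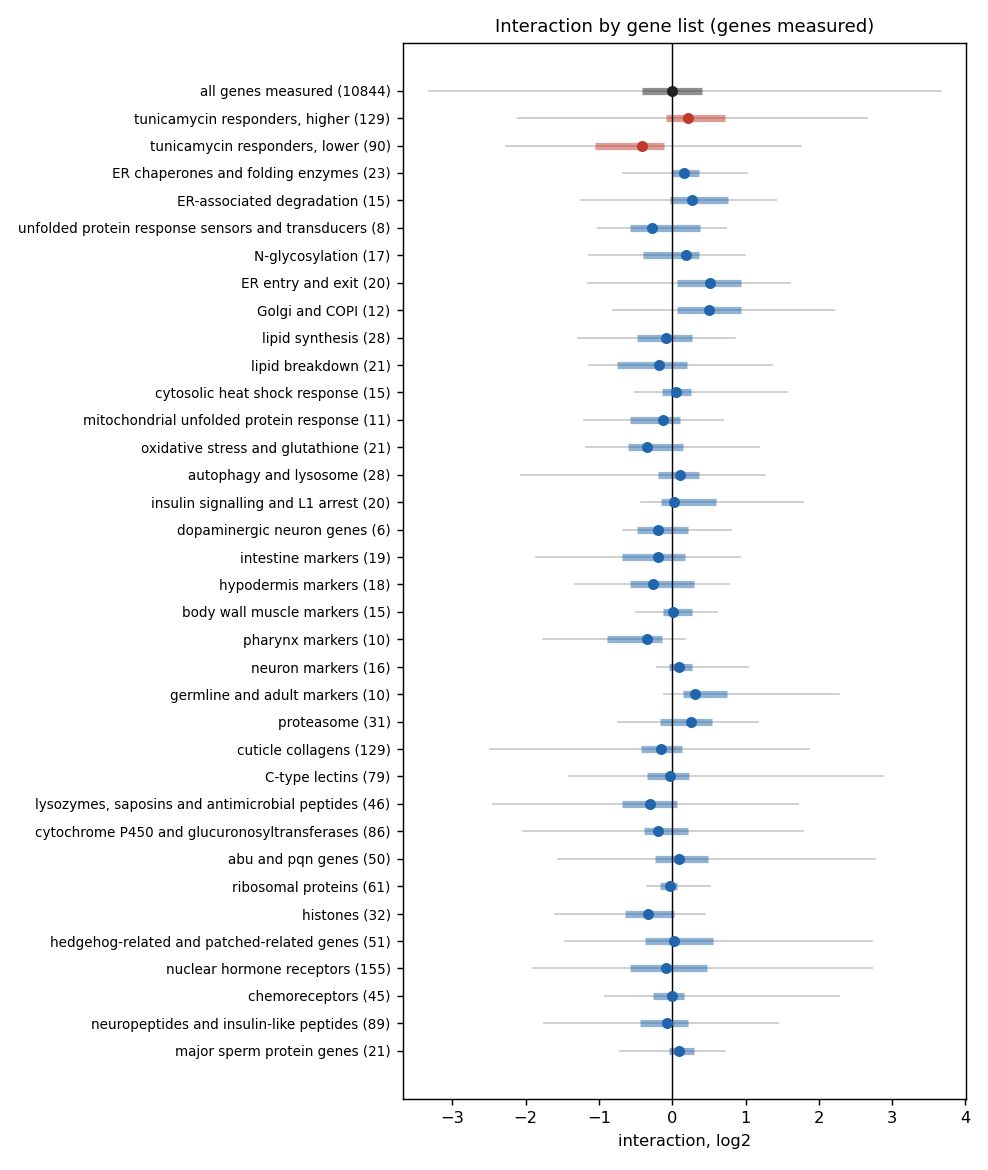
Interaction (log2) over the genes of each list with at least 6 genes measured, the number of genes in brackets. The point is the median, the thick bar runs from the lower to the upper quartile and the thin line from the lowest to the highest gene, for all 10844 genes (black), for the tunicamycin responders (red) and for the other lists (blue). The medians of ER entry and exit (0.52) and of Golgi and COPI (0.50) are the highest shown and that of the lower responders (-0.41) is the lowest.

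Markers of tissues checked the label of whole larvae. Mean signals exceeded the background level, 3.34, for 19 of 19 intestine, 18 of 19 hypodermis, 15 of 15 body wall muscle, 16 of 16 neuron and 8 of 12 pharynx markers, and for 8 of 19 germline and adult markers, whose median signal was 3.07. They also exceeded it for 18 of 23 major sperm protein genes, with a median signal of 3.78. The check thus did not wholly bear out the label of first-stage larvae. Why the sperm protein genes read above background was not tested. Of the 19 intestine genes 6 had interactions above 0, with a median of -0.20 (-0.41 without replicate 3 of wild type with tunicamycin). At the unadjusted level were 3 (15.8%, beside 4.71% of all genes), all below 0. These were the intestinal intermediate filament genes ifc-1, ifd-1 and ifd-2, at -1.53 (SE 0.48), -1.40 (SE 0.59) and -1.86 (SE 0.81). The log2 signals of the 19 intestine markers summed to between 132.1 and 134.9 in wild type with vehicle, 125.2 and 130.1 in wild type with tunicamycin, 129.3 and 133.4 in mutants with vehicle and 116.2 and 121.3 in mutants with tunicamycin. The treated mutants were the lowest group and did not overlap the others. The sums include ifc-1, ifd-1 and ifd-2, and were not computed without them, so they need not reflect the intestine markers in general. For hypodermis markers, 7 of 18 were above 0 with a median of -0.26, and 1 was at the unadjusted level (5.56%), below 0. Their sums were 136.0 to 139.1, 124.3 to 133.9, 122.6 to 137.4 and 116.4 to 122.4 in the same order. The part of intestine and hypodermis in the values of alh-5, pud-4, cpr-4 and the other lower responders was not tested. In RNA of whole larvae, fewer cells of a tissue and less RNA per cell cannot be told apart. Muscle markers (8 of 15 above 0, median 0.01) and neuron markers (10 of 16, median 0.09) had 0 at the unadjusted level, as had pharynx markers (1 of 10 above 0, median -0.34). Germline and adult markers had 8 of 10 above 0 with a median of 0.31, which was -0.11 under the 60th percentile filter.

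On 7 control transcripts the signal at the 3′ end exceeded that at the 5′ end by 0.26 to 0.54 on the 4 arrays numbered 2 and 0.67 to 1.05 on the other 8, so the arrays numbered 2, 1 in each group, stood apart. The interaction of that difference was 0.01. Spearman correlations between arrays of a group were 0.848 to 0.927, and array medians lay between 3.96 and 4.05.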

How the data were processed

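Total RNA of whole larvae (6 ug) was labelled and hybridised to Affymetrix arrays, per the labels' protocols. Signals of 22625 probe sets on all arrays, on a log2 scale, are in the authors' deposited table. The log2 scale was read from the values, which appear normalized between arrays already, and MAS5 appears in the submitters' processing notes with no role or version. How the authors made the values is not given in the sources used here. A summary that compresses dim signals would shrink their differences.

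The 77 control probe sets were left out. Probe sets were kept that exceeded the 40th percentile of their array on at least 3 arrays (14709). The background level is the 95th percentile of 32 bacterial and yeast control probe sets. Genes were named from the platform annotation, through gene numbers in the RefSeq table of assembly WBcel235, and only from probe sets with 1 gene (13689 kept, with 481 naming several and 539 none). Where several kept probe sets read a gene (2332 genes), the brightest over all arrays stood for it.

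The 4 group means were fitted with limma 3.58.1 in R 4.3.3 (eBayes with trend, 8 residual and 5.93 prior degrees of freedom), two-sided, with Benjamini-Hochberg adjustment over 14709 probe sets. Errors are SD over 3 arrays or limma's SE. Intervals are 95% and unadjusted. The script was tested on simulated data. Named genes are those past adjusted p 0.05, filled up to 10 per direction by smallest p, and a fixed panel, mostly of ER genes. Up to 3 members of each of 35 lists with the smallest p (part of them given in the text) were added. So were the 5 responders of largest interaction in each direction. Members and lists were chosen with earlier results of these data known. Of the written list members 38 matched no gene on the array. Lists are described without tests. A count of promoter motifs was planned and not run, since promoter sequences were not used here.

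Alternatives were quantile normalization, median centring, no filter, a 60th percentile filter, an offset before log2, the replicate block, eBayes without trend, robust or unmoderated, an unadjusted p with a 2-fold difference, leaving out each array or the 4 numbered 2, and averaging all kept probe sets of a gene.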

Additional observations from a re-analysis of the deposited data

Results flagged for a closer look

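A single result was marked for a closer look, because the effects of 2 groups under the same contrast differed by a test of the difference itself. At the called rab-6.1 probe set the tunicamycin effects of wild type (-1.98) and mutants (1.75) differed by 3.73 (SE 0.46, limma adjusted p = 0.0177). All 3 treated wild-type arrays were below all 3 vehicle arrays, and all 3 treated mutant arrays above theirs. The other rab-6.1 probe sets had interactions of -0.33 and 0.15. Outliers within groups were not sought, since groups had 3 arrays.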

How the results depend on the processing

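With 3 arrays per group the intervals are wide, and dim probe sets carry the least information. The called rab-6.1 probe set passed the threshold under all 9 alternative normalizations, filters and tests, the replicate block included, and on leaving out 3 of the 12 arrays. It missed it in the other 9 leave-one-out fits (interaction 3.52 to 3.87 over the 12) and without the 4 arrays numbered 2 (3.54). The count of called probe sets was 2 with the replicate block, where the second T22F3.11 probe set (-2.47, limma adjusted p = 0.0305) joined rab-6.1, 0 to 2 on leaving out an array and 0 without the arrays numbered 2, where 152 passed for averaged tunicamycin. Without mutant vehicle replicate 3 the call was C53B7.6 in place of rab-6.1. An unadjusted p under 0.05 with a 2-fold difference gave 610. Averaged tunicamycin called 280 in the reported fit, 154 with an unmoderated test and 165 to 251 on leaving out an array. The responder counts at an unadjusted p were, for the higher ones above 0, 9 to 15 on leaving out an array (8.11% to 13.2% of the responders of that fit, 10.9% as reported) and 7 without the arrays numbered 2, and for the lower ones below 0, 11 to 24 (20.8% to 44.2%, 25.6% as reported) and 8, and 15 of 48 with no filter. In all of these the cause was not tested, except that fewer arrays leave fewer degrees of freedom. By the labels the replicate numbers are only numbers, and the replicate block was not used for the reported values, since no stated method uses one. Deviations from group means of same-numbered arrays correlated between 0.054 and 0.232 for number 2. For numbers 1 and 3 the range was -0.0776 to 0.179, and 6 of the 18 same-numbered pairs were over 0.1. Pairs of different numbers ranged from -0.222 to 0.164. All pairs numbered 2 were thus above 0, and an effect shared by those arrays was not removed from the reported values. Values near 0 changed sign on leaving out an array for enpl-1 (-0.15 to 0.38), pdi-6 (-0.24 to 0.77), dnj-27 (-0.63 to 0.70), crt-1 (-0.16 to 0.25), cup-2 (-0.31 to 0.15), ubxn-4 (-0.19 to 0.33), spcs-1 (-0.05 to 0.37), xbp-1 (-0.35 to 0.07) and atf-6 (-1.21 to 0.43). They also did so for cup-2 (0.18) and spcs-1 (-0.20) without the arrays numbered 2, for cup-2 (0.03) and ubxn-4 (-0.00097) with an offset, and for ubxn-4 (-0.04) under quantile normalization. None of the others among the 64 genes followed changed sign. Medians of lists moved by more than the spread between arrays in 9 of 805 recomputed values. In this balanced design the replicate block and the changes of test (eBayes without trend, robust or unmoderated) cannot alter an interaction estimate. Their medians were the same by construction, so 9 of 805 overstates how stable the medians were.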
